A study of Mus musculus with 6 samples.

Results

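The histone genes on the array were examined after depletion of BRG1 in mouse embryonic stem (ES) cells. Members were all gene names in the scanner files that begin with Hist1h to Hist4h, taken as the clustered genes, or with H1f, H2af or H3f, taken as the variant genes, with every non-control probe. This gave 47 of 27962 gene names and 67 of 41174 probes, of which 34 genes and 44 probes were clustered and 13 genes and 23 probes were variant. All 47 names had a current RefSeq symbol, 42 by transcript accession and 5 by synonym, so that Hist3h2ba is now H2bu2, Hist2h3c1 is H3c14 and H2afz is H2az1. The cells were of an F1 background from 129 and C57BL/6, were given siRNA against BRG1 or a scrambled control siRNA, and were collected after 48 h, with 3 single-colour arrays per group. BRG1, the product of Smarca4, is the motor ATPase of SWI/SNF complexes, which slide and evict nucleosomes. Nothing in the labels ties the replicates to separate cultures. The p-values therefore reflect array-to-array spread that may be technical, and precision is limited by having 3 arrays a group.

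Histones are the proteins around which DNA is wrapped. Clustered genes supply most of the core histones H2A, H2B, H3 and H4 and the linker histone H1 in S phase, and their mRNAs typically end in a conserved stem-loop instead of a poly(A) tail. Most variant genes stand alone in the genome, are polyadenylated and are made outside S phase as well. Their products can thus replace the clustered histones in chromatin. Cy3-labelled cRNA was made from 500 ng of total RNA. The primer used for labelling is not given in the sources used here, and how fully mRNAs without a poly(A) tail were labelled was not tested.

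The sequences of the probes bear on which transcript each value can be assigned to. The probes of Hist1h2bk and Hist1h2bm, at chr13:21402048-21402107 and chr13:21088259-21088318 on the plus strand of mm7, were identical at 58 of 60 bases, with the differing bases in capitals below, both 5′ to 3′.
Hist1h2bk: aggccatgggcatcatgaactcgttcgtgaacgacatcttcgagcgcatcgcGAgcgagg
Hist1h2bm: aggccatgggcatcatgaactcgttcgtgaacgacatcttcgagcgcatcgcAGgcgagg
The probes of the H2A genes Hist1h2aa and Hist1h2af, at chr13:23300592-23300651 and chr13:22900228-22900287 on the plus strand of mm7, shared 47 of 60 bases and differed, in capitals, only after the first 44 bases.
Hist1h2aa: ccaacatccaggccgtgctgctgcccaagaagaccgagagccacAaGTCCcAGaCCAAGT
Hist1h2af: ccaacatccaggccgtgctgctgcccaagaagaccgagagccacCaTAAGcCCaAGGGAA
Probes of the H3 genes Hist1h3d and Hist2h3c1 lie at chr13:22942103-22942162 and chr3:96121184-96121243 on the plus strand of mm7. They overlapped over a stretch of 20 bases, shown in capitals, of which 19 were identical.
Hist1h3d: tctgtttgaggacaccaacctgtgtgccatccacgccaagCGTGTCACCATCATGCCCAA
Hist2h3c1: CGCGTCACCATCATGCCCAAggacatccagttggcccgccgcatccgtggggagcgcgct
Over the tested genes, 12 of 43 had a probe that shared a run of at least 20 bases with a probe of another member, 11 of them clustered and 1 variant. Values of those genes may hold signal of their near-identical copies. Of the genes whose level changed, only Hist3h2bb was among the 12 at that run length. Probes were compared with probes and not with transcripts. A probe outside the 12 may therefore still read other histone genes that hold the same stretch.

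Stem-loop sequence appeared in very few probes. The 16 bases of the histone stem-loop, in the form shown in capitals for Hist1h3a below, were searched in the sense strand of all 41174 probes. The whole element in that form was present in 1 of them, the probe of the H3 gene Hist1h3a at chr13:23127689-23127748 on the minus strand of mm7. A stem-loop that differs from this form would not have been counted as whole. Partial matches of at least 10 bases at a probe end were found for the H2A genes Hist1h2ab, at chr13:23117325-23117384 on the plus strand, and Hist1h2ae, at chr13:22936613-22936672 on the minus strand. The 30 bases around each match are shown 5′ to 3′ with the stem-loop bases in capitals.
Hist1h3a: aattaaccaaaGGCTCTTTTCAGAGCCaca
Hist1h2ab: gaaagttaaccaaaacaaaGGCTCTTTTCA
Hist1h2ae: CTTTTCAGAGCCattcacttaattcagtaa
In the Hist1h2ae probe the stem-loop bases stood at the 5′ end and 48 bases followed them, so most of that probe lies downstream of the element where the mature mRNA of a clustered gene usually ends. In the Hist1h2ab probe the matched bases were the last 11, and 49 bases preceded them.

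Promoter motifs known from histone genes were more frequent in the windows of clustered genes. Windows of 300 bases, from 250 before to 50 after the annotated start, were available from RefSeq on GRCm38.p6 for 29 of 34 clustered and 11 of 13 variant genes, and they were searched on both strands for CCAAT, for TATAAA and for the octamer ATTTGCAT. CCAAT was present in 26 of 29 clustered genes (89.7%) and 7 of 11 variant genes (63.6%), against 41.1% of all 27025 genes with a window. TATAAA was present in 19 clustered genes (65.5%) and 1 variant gene (9.09%), against 15.7% of all genes. The octamer was present in 10 clustered genes (34.5%) and 1 variant gene (9.09%), against 1.97% of all genes, and 4 of 5 clustered H2B genes with a window held it. The windows of Hist1h2aa and Hist1h2ba, on opposite strands, overlap and hold the same octamer, which was counted for each gene. Hist1h2be had more than 1 window, and not every window of that gene held the octamer. No matches of different motifs overlapped in any of the 41 member windows. The windows of 3 genes that the results turn on follow, all on the plus strand, with matches on either strand in capitals. Hist3h2ba (chr11:58948661-58948960) held 4 CCAAT and 2 TATAAA matches, Hist1h3d (chr13:23575513-23575812) held 3 CCAAT and 3 TATAAA matches, and Hist1h2bk (chr13:22035571-22035870), whose H2B gene did not pass the test, held 3 CCAAT, 1 TATAAA and 1 octamer match.
Hist3h2ba: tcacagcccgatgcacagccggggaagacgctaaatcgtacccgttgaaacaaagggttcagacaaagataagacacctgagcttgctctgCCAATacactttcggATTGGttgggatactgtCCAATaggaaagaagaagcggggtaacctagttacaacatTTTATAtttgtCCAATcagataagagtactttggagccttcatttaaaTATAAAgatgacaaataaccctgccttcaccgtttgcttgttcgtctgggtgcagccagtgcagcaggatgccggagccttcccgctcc
Hist1h3d: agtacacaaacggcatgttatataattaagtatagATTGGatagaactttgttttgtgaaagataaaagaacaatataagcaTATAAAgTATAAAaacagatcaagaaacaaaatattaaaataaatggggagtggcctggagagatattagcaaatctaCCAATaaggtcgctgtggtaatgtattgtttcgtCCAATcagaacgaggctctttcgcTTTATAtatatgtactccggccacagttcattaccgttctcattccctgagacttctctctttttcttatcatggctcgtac
Hist1h2bk: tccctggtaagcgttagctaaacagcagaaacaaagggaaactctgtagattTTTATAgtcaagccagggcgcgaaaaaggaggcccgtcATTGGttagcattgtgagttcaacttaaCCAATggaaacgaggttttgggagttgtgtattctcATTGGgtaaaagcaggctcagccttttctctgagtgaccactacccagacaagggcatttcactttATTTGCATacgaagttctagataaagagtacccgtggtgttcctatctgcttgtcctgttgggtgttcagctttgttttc
Among clustered genes with a window, CCAAT was present in 5 of 5 that fell and in 18 of 21 that were tested and not called. TATAAA was present in 3 of 5 and 15 of 21, and the octamer in 1 of 5 and 7 of 21.

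Values below are log2 of the processed spot signal minus the 75th percentile of the array, each gene is represented by its brightest probe, and a log2 change is BRG1 siRNA minus control siRNA with its standard error. A gene was tested where the 3 arrays of either group all read that probe well above background, and was called where the adjusted p of limma (Benjamini-Hochberg over all 17758 tested genes) was under 0.05. Between 60.9% and 70.9% of spots on BRG1 siRNA arrays and between 64.8% and 75.3% on control arrays were well above background. Slide 1 carried BRG1 siRNA replicate 1 and all 3 controls, slide 2 carried the other BRG1 siRNA arrays, and scans were split alike. The targeted gene itself, Smarca4, was at 3.76, 3.74 and 3.60 on BRG1 siRNA arrays, against 4.32, 4.36 and 4.23 on control arrays. The groups did not overlap, and its log2 change was -0.60 ± 0.064 (adjusted p = 0.00365), or 65.8% of control. On slide 1 alone the change was -0.54 and the adjusted p 0.0724. Of 8 ES cell markers, 2 rose (25%) and 1 fell (12.5%), where 9.87% of all tested genes rose and 13.4% fell. From 0 to 3 of the markers were called as arrays were left out. Pou5f1 fell by 0.33 on the log2 scale (adjusted p = 0.0206), Nanog rose by 0.41 (adjusted p = 0.0138) and Sox2 had a log2 change of -0.16 (adjusted p = 0.0521).

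A small set of histone genes fell and none rose. Of 43 tested members, 11 were called lower (25.6%), where 13.4% of all tested genes were called lower and 23.3% were called in either direction. None was called higher by limma, where 9.87% of all genes were, although 2 variant genes were higher at an unadjusted p under 0.05. Among clustered genes 7 of 31 fell (22.6%), and among variant genes 4 of 12 fell (33.3%). The median log2 change was -0.12 over the 31 clustered genes and -0.08 over the 12 variant genes, beside -0.04 over all tested genes. Changes were below zero for 27 of 31 clustered and 7 of 12 variant genes, against 57.1% of all genes, but with spike-in scaling only 13 of the 43 members were below zero, and the medians became 0.08 and 0.11 beside 0.16 for all genes. Minus the median of all genes, the clustered median was -0.09 and the variant median -0.05, and both differences are the same under spike-in scaling by construction, since it shifts every gene of an array alike. With quantile normalization the variant median was 0.00016 and the clustered median -0.09.

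Groups that did not overlap were more frequent than calls. All 3 BRG1 siRNA arrays lay below all 3 control arrays for 13 of 31 clustered and 5 of 12 variant genes (41.9% and 41.7%), where 25.1% of all tested genes showed that order. The opposite order was seen for 2 members, the variant H2A genes H2afy and H2afy3, where 18.9% of all genes showed it. Leaving out an array changed the count of called members. Without BRG1 siRNA replicates 1, 2 and 3 in turn it was 3, 5 and 12, all lower (6.98%, 11.4% and 27.9%). Of all genes, 7.23%, 6.56% and 15.1% were lower in those fits. Without control replicates 1, 2 and 3 it was 5, 3 and 2 (11.6%, 6.98% and 4.65%). Of all genes, 7.90%, 6.41% and 5.38% were then lower. With spike-in scaling and with replicate number as a block, 2.33% and 4.65% of members were lower, where 3.58% and 6.52% of all genes were. With slide as a block, which rests on the arrays of slide 1 for the difference, 3 members were lower (6.98%), where 5.15% of all genes were, and these were Hist3h2ba, Hist2h3c1 and H3f3b.

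**Figure D1:**
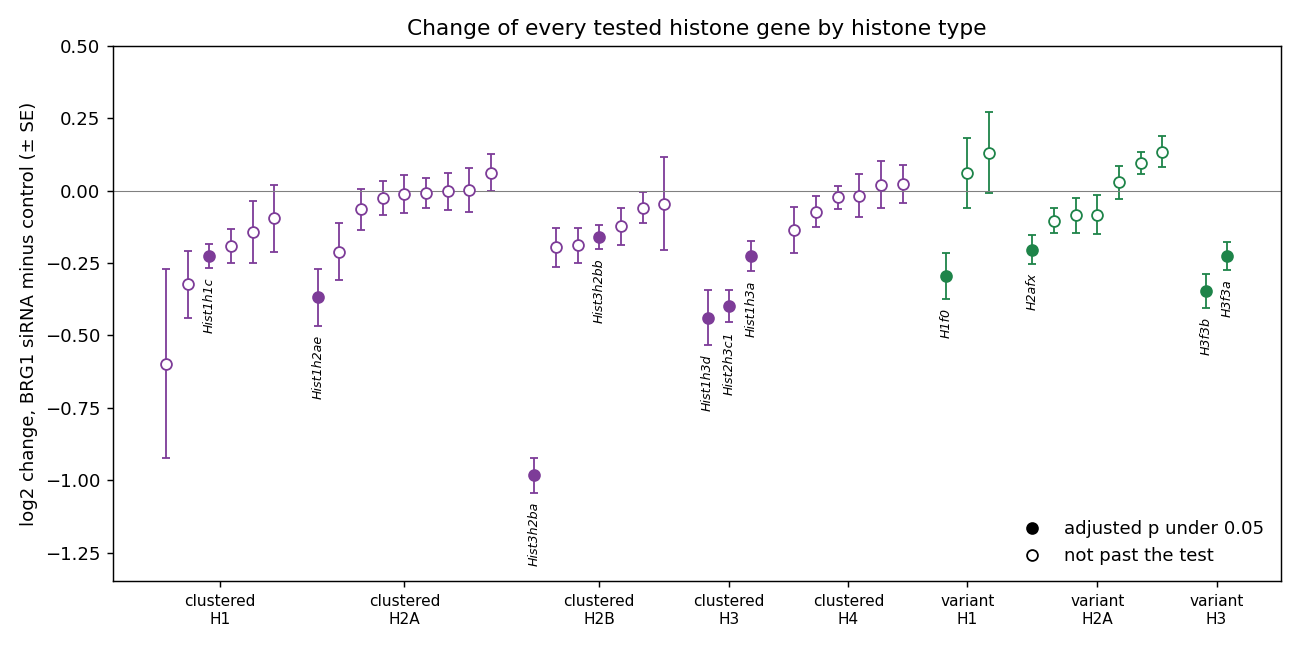
Log2 change (BRG1 siRNA minus control siRNA, y axis, with standard error, n = 3 arrays each) of every tested clustered (purple) and variant (green) histone gene, sorted within histone type (x axis), with filled points for genes past the test. All 5 H3 genes are filled and below zero, Hist3h2ba lies lowest at -0.98, and no H4 gene is filled.

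H3 was the type in which every tested gene fell, 3 of 3 clustered and 2 of 2 variant, where 13.4% of all tested genes fell. Whether the probes of the clustered H3 genes read separate transcripts was not tested. Hist1h3d, a clustered H3 gene, was at 5.06, 5.06 and 5.36 on BRG1 siRNA arrays, against 5.65, 5.52 and 5.62 on control arrays. Its log2 change was -0.44 ± 0.096 (adjusted p = 0.0268). The groups were apart, with BRG1 siRNA replicate 3 closest to the controls. Hist2h3c1, a clustered H3 gene on another chromosome, was at 5.66, 5.73 and 5.81 with BRG1 siRNA, against 6.19, 6.09 and 6.12 with control siRNA. Its log2 change was -0.40 ± 0.055 (adjusted p = 0.0072), and the groups did not overlap. Hist1h3a, whose probe holds the whole stem-loop, was at -2.83, -2.96 and -2.81 with BRG1 siRNA, against -2.63, -2.64 and -2.65 with control siRNA. It had a log2 change of -0.23 ± 0.052 (adjusted p = 0.0318), with the control arrays close together and the groups apart.

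Both genes of the replacement variant of H3, which encode the same protein and are used outside replication, fell as well. H3f3b was at 6.48, 6.64 and 6.64 with BRG1 siRNA, against 6.96, 6.90 and 6.94 with control siRNA, a log2 change of -0.35 ± 0.058 (adjusted p = 0.0120). H3f3a was at 6.31, 6.44 and 6.38 with BRG1 siRNA, against 6.64, 6.57 and 6.60 with control siRNA, a log2 change of -0.22 ± 0.049 (adjusted p = 0.0261). In both genes every BRG1 siRNA array was below every control array. The 5 H3 genes were below zero under all 22 alternative settings tried, but with spike-in scaling none of them passed the test. The number of H3 genes called was 2, 3 and 5 without BRG1 siRNA replicates 1, 2 and 3 in turn, and 2, 2 and 1 without control replicates 1, 2 and 3.

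**Figure D2:**
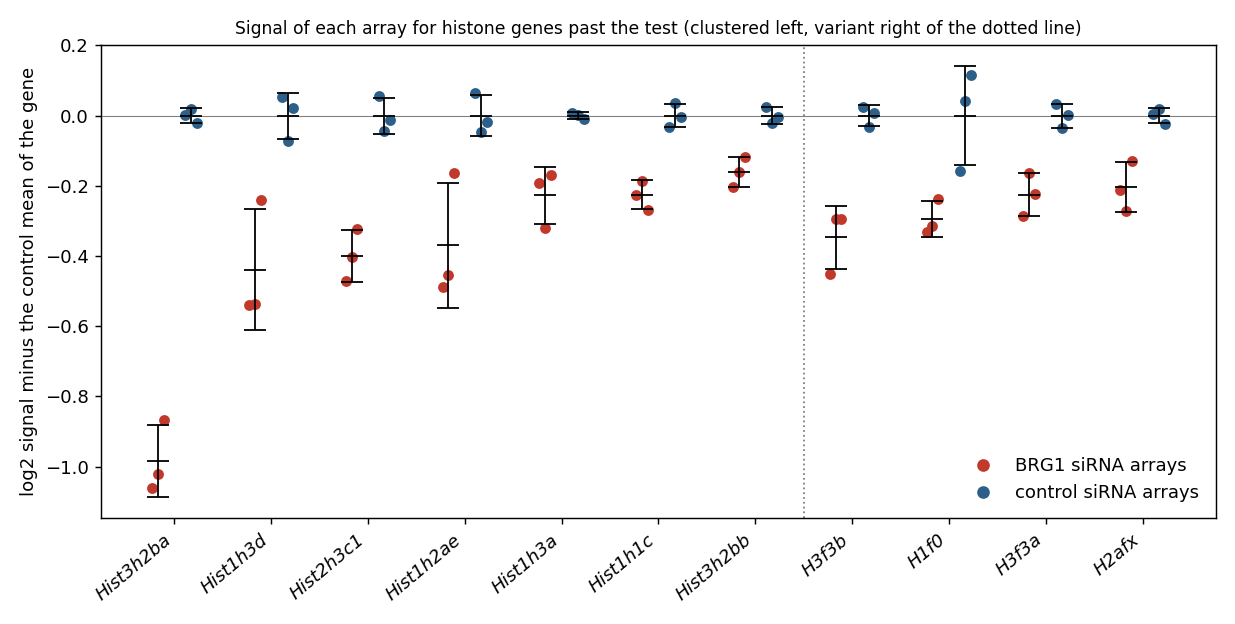
Signal of each array (points, y axis, log2 signal minus the mean of the 3 control arrays for that gene) for the 11 histone genes past the test (x axis), with BRG1 siRNA arrays in red left of control arrays in blue, and the mean with its SD in black. In every gene the 3 red points lie below the 3 blue points, by the widest margin in Hist3h2ba.

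Among H2B genes, 2 of 7 tested fell (28.6%, against 13.4% of all tested genes), and both are annotated in the small Hist3 cluster on chromosome 11. Hist3h2ba, an H2B gene, showed the largest change of any member. Its probe at chr11:59030991-59031050 on the plus strand of mm7 read -0.08, -0.04 and 0.11 on BRG1 siRNA arrays, against 0.98, 1.00 and 0.96 on control arrays. The groups were far apart relative to the spread within them, and the log2 change was -0.98 ± 0.061 (adjusted p = 0.0013), or 50.6% of control. It was called under all 22 alternatives, from -1.06 with slide as a block to -0.78 with spike-in scaling. Hist3h2bb, which RefSeq now lists as the transcribed pseudogene H2bu1-ps, was at 0.97, 1.01 and 1.05 with BRG1 siRNA, against 1.20, 1.15 and 1.16 with control siRNA. Its log2 change was -0.16 ± 0.042 (adjusted p = 0.0436) and turned to 0.04 with spike-in scaling. The Hist3h2bb probe matched those of Hist1h2bk and Hist1h2bm, both on chromosome 13, at 55 and 54 of 58 overlapping bases. Its fall therefore cannot be assigned to the Hist3 cluster alone.

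The near-identical probes of Hist1h2bk and Hist1h2bm gave nearly the same readings. Hist1h2bk was at 1.03, 1.11 and 1.22 with BRG1 siRNA, against 1.34, 1.28 and 1.32 with control siRNA, a log2 change of -0.19 ± 0.059 (adjusted p = 0.0724). Hist1h2bm had a log2 change of -0.20 ± 0.067 (adjusted p = 0.0878). Neither passed, although the groups did not overlap in either, and both passed without BRG1 siRNA replicate 3. A second, dimmer probe of Hist1h2bk shared no run of at least 20 bases with a probe of another member. Its log2 change was -0.08 ± 0.054 (adjusted p over all tested probes = 0.332). The testis-associated H2B gene Hist1h2ba had a log2 change of -0.12 ± 0.063 (adjusted p = 0.216).

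The Hist3 genes lie close together on chromosome 11, with Trim17 between Hist3h2bb and Hist3h2a, and the genes around them, chosen after the values of Hist3h2ba were seen, were read for comparison. Trim11, which encodes a ubiquitin ligase of the tripartite motif family, was at 1.17, 1.25 and 1.24 with BRG1 siRNA, against 1.50, 1.44 and 1.50 with control siRNA. It fell by 0.27 on the log2 scale (SE 0.043, adjusted p = 0.0113). Rnf187, another ubiquitin ligase gene, had a log2 change of -0.08 ± 0.039 (adjusted p = 0.181), and Zfp39, a zinc finger gene, one of -0.34 ± 0.143 (adjusted p = 0.144). The probes of Trim17 and Btnl10 were too dim to be tested.

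Most H2A genes did not pass the test. Of 16 tested, 2 fell (12.5%, a share near the 13.4% of all tested genes), the clustered Hist1h2ae and the variant H2afx, and the clustered H2A median was -0.01 over 9 genes, or 0.19 with spike-in scaling. Hist1h2ae, read by the probe that lies mostly past the stem-loop, was at -1.49, -1.46 and -1.17 with BRG1 siRNA, against -0.94, -1.05 and -1.02 with control siRNA. Its log2 change was -0.37 ± 0.097 (adjusted p = 0.0450), and replicate 3 of BRG1 siRNA lay nearest to the controls. H2afx, the variant that is phosphorylated at DNA breaks, was at 6.38, 6.32 and 6.46 with BRG1 siRNA, against 6.59, 6.61 and 6.56 with control siRNA, a log2 change of -0.20 ± 0.050 (adjusted p = 0.0375). The groups did not overlap. With spike-in scaling the change of H2afx was -0.0048.

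The clustered H2A genes with the brightest probes did not pass the test. Hist1h2aa, a testis-associated H2A gene whose probe shares its first 44 bases with that of Hist1h2af, was at 7.51, 7.46 and 7.60 with BRG1 siRNA, against 7.39, 7.44 and 7.56 with control siRNA. Hist1h2af was at 7.02, 7.12 and 7.16, against 7.14, 7.07 and 7.12. In both genes the groups overlapped, and the log2 changes were 0.06 ± 0.064 (adjusted p = 0.530) and -0.0089 ± 0.051 (adjusted p = 0.920). Hist2h2ac had a log2 change of -0.06 ± 0.071 (adjusted p = 0.556), and Hist3h2a one of -0.02 ± 0.058 (adjusted p = 0.791).

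Variant H2A genes went both ways without passing the test, apart from H2afx. H2afz, which marks promoters and enhancers, was at 7.03, 7.04 and 7.11 with BRG1 siRNA, against 7.14, 7.15 and 7.21 with control siRNA, a log2 change of -0.10 ± 0.044 (adjusted p = 0.147). H2afv, its close paralog, had a log2 change of -0.09 ± 0.059 (adjusted p = 0.343), and H2afj one of 0.03 ± 0.057 (adjusted p = 0.742). The H2afj probe matched those of the clustered Hist1h2aa and Hist1h2af at 45 and 43 of 52 overlapping bases, so its value may hold their signal. A dimmer H2afj probe shared no run of at least 20 bases with a probe of another member. That probe had a log2 change of -0.02 ± 0.066 (adjusted p over all tested probes = 0.853). The macroH2A gene H2afy, linked to silent chromatin, was at 2.24, 2.19 and 2.12 with BRG1 siRNA, against 2.02, 2.01 and 2.11 with control siRNA, and the groups were just apart. Its log2 change was 0.14 ± 0.053 (adjusted p = 0.125). H2afy3, now named Macroh2a3, had a log2 change of 0.10 ± 0.038 (adjusted p = 0.125), also without overlap, and H2afy2 one of -0.08 ± 0.068 (adjusted p = 0.426).

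Of the 6 clustered linker histone genes 1 fell (16.7%, against 13.4% of all tested genes). All 6 changes were below zero with a median of -0.21, although with spike-in scaling 3 of the 6 were below zero. Hist1h1c was at -0.56, -0.52 and -0.60 with BRG1 siRNA, against -0.37, -0.30 and -0.34 with control siRNA. Its log2 change was -0.23 ± 0.043 (adjusted p = 0.0179), and the groups did not overlap. Hist1h1e had a log2 change of -0.32 ± 0.116 (adjusted p = 0.0987) and Hist1h1d one of -0.19 ± 0.058 (adjusted p = 0.0686), both with non-overlapping groups. The testis gene Hist1h1t was dim and scattered, at -4.17, -3.84 and -3.30 with BRG1 siRNA, against -3.05, -3.73 and -2.74 with control siRNA, and its log2 change of -0.60 ± 0.326 did not pass (adjusted p = 0.240). With spike-in scaling the change of Hist1h1c was -0.03.

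Of the variant H1 genes, 1 of 3 tested fell (33.3%, against 13.4% of all tested genes). H1f0, a linker histone that accumulates in cells that have stopped dividing, was at 0.94, 0.95 and 1.03 with BRG1 siRNA, against 1.11, 1.31 and 1.38 with control siRNA. The groups were narrowly apart, the control arrays were more spread than those of BRG1 siRNA, and the log2 change was -0.29 ± 0.080 (adjusted p = 0.0494). H1fx had a log2 change of 0.13 ± 0.142 (adjusted p = 0.544), and the oocyte linker histone gene H1foo one of 0.06 ± 0.122 (adjusted p = 0.752).

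No H4 gene passed the test, where 23.3% of all tested genes did, and 0 of 6 did so at an unadjusted p under 0.05 either. Their log2 changes ran from -0.14 in Hist1h4f to 0.02 in Hist4h4, with a median of -0.02 (0.18 with spike-in scaling), and in none of them were the groups apart. Hist1h4f was at 3.63, 3.75 and 3.58 with BRG1 siRNA, against 3.93, 3.72 and 3.71 with control siRNA, so that the arrays overlapped. The probes of Hist1h4f and Hist1h4d were identical over their 50 overlapping bases. Whether H3 differed from H4, or from the other types, was not tested.

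Genes with several probes gave a check within the gene. Of 57 tested member probes, 12 were lower when adjusted over all 26258 tested probes (21.1%), where 11.0% of all probes were lower, and 0 were higher, where 8.6% were. The number of member probes called was 6, 4 and 15 without BRG1 siRNA replicates 1, 2 and 3 in turn, and 5, 3 and 2 without control replicates 1, 2 and 3. Of 11 genes with several tested probes, 8 had all changes on the same side of zero. The others were H2afj (-0.02 and 0.03), Hist1h2af (-0.0089 and 0.03) and Hist1h4d (-0.15 and 0.02), and none of their probes was called. H3f3b fell in both probes, by 0.33 and 0.35, though their starts lie 955 bases apart in mm7. H3f3a fell in 2 of 3 probes, and the third had a log2 change of -0.15 ± 0.063 (adjusted p over probes = 0.147). The 3 probes of H1f0 ran from -0.56 to -0.29, and none passed over all probes, with the brightest at an adjusted p of 0.0553.

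Probes of Hist3h2a did not move alike. The brightest, at chr11:59036430-59036489 on the plus strand of mm7, was at 6.03, 6.07 and 6.11 with BRG1 siRNA, against 6.00, 6.10 and 6.18 with control siRNA, and the groups overlapped. A probe whose start is 567 bases further 3′, at chr11:59036997-59037056, was at 0.52, 0.57 and 0.65, against 0.87, 0.96 and 0.97. That probe fell by 0.35 on the log2 scale (SE 0.055, adjusted p over probes = 0.0112). The remaining probe of that name reads the minus strand, opposite to the gene, and its change was -0.09 ± 0.048 (adjusted p over probes = 0.254).

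H1fx and H2afy each had a dimmer probe whose change was above zero, as was that of the brightest probe, with log2 changes of 0.23 ± 0.066 (adjusted p over probes = 0.0590) and 0.19 ± 0.057 (adjusted p over probes = 0.0656). Both passed as higher with spike-in scaling, with log2 changes of 0.43 (adjusted p over probes = 0.0328) and 0.39 (adjusted p over probes = 0.0481), and with eBayes fitted with trend and robust. The second probe named H2afz lies on chromosome 6 in mm7, whereas the tested probe lies on chromosome 3, and it was above background on no array. Of the 10 untested member probes, 5 were above background on no array, and the names H1fnt, Hist1h2ac, Hist1h2be and Hist2h2aa2 had no tested probe.

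**Figure D3:**
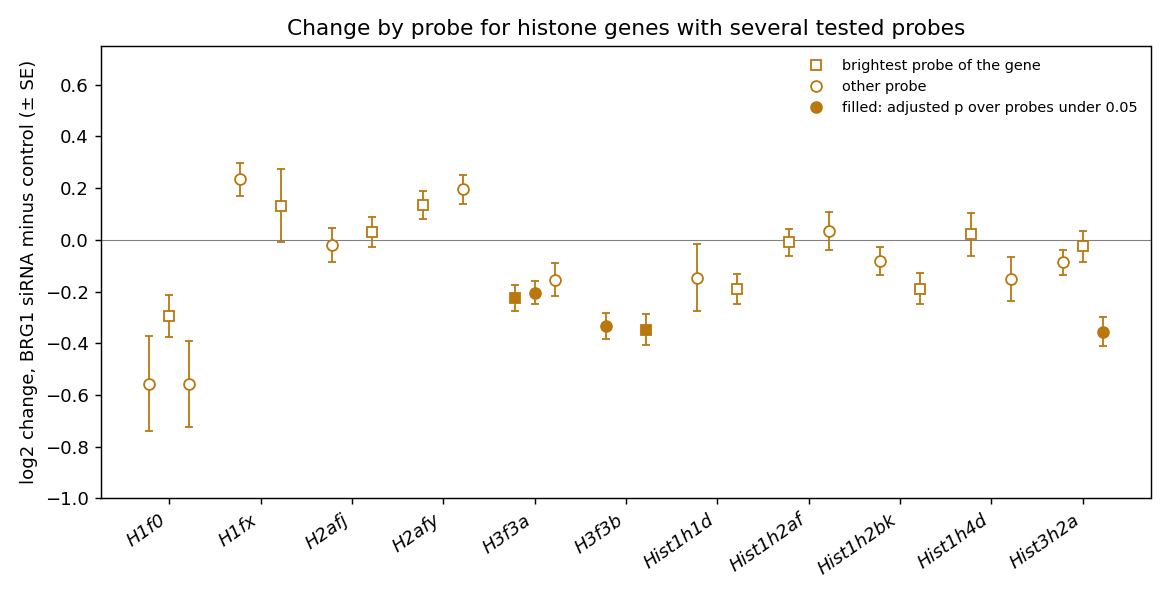
Log2 change (BRG1 siRNA minus control siRNA, y axis, with standard error, n = 3 arrays each) of each tested probe for the 11 histone genes with several tested probes (x axis), with squares for the brightest probe and filled symbols for probes past the test over all probes. The probes of H3f3b lie together at -0.33 and -0.35, whereas those of Hist3h2a run from -0.35 to -0.02.

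The calls differed in how far they rested on scaling, slide and single arrays. Hist3h2ba and Hist2h3c1 passed with each array left out in turn, and H3f3b passed except without control replicate 3. Hist1h1c was lost without control replicates 2 or 3 or BRG1 siRNA replicate 1, and H3f3a without any 1 control array or that same BRG1 siRNA array. H1f0 passed only without control replicate 1, and Hist1h3d, Hist1h2ae, Hist1h3a, H2afx and Hist3h2bb only without BRG1 siRNA replicate 3. In the fit with slide as a block, log2 changes were -1.06 for Hist3h2ba (adjusted p = 0.0187), -0.47 for Hist2h3c1 (adjusted p = 0.0374) and -0.45 for H3f3b (adjusted p = 0.0301). On slide 1 alone, with a single BRG1 siRNA array assumed to vary like the controls, Hist3h2ba passed (adjusted p = 0.0449). With median scaling Hist3h2ba, Hist2h3c1 and Hist1h3d passed, and with spike-in scaling Hist3h2ba alone passed.

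**Figure D4:**
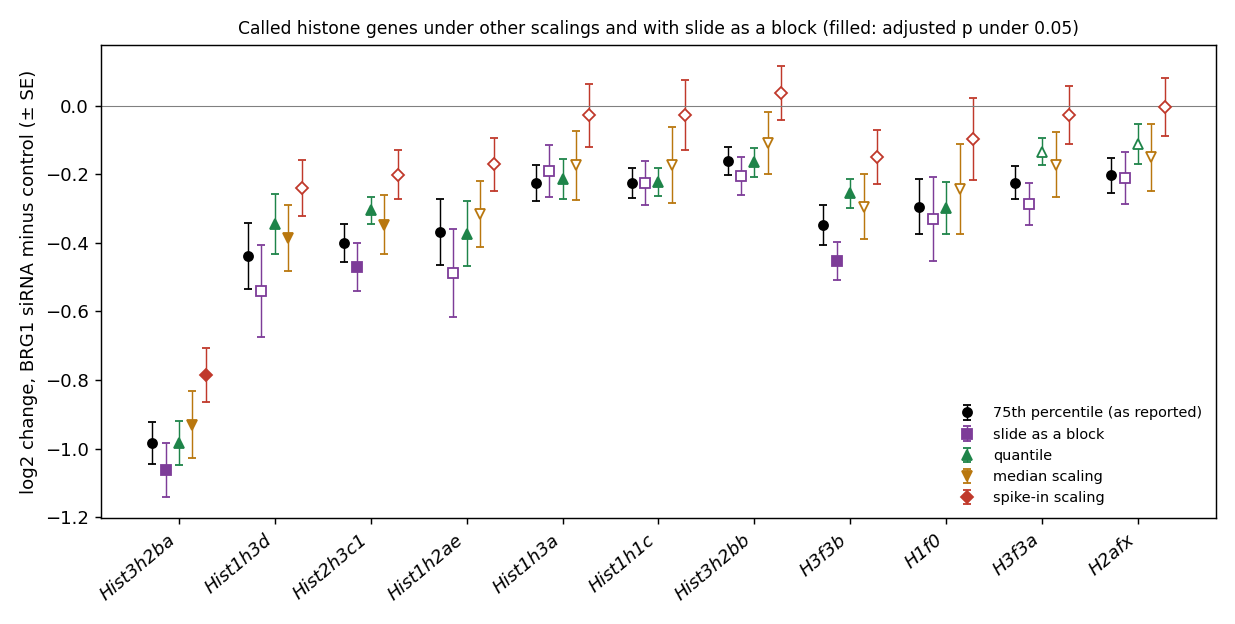
Log2 change (BRG1 siRNA minus control siRNA, y axis, with standard error) of the 11 called histone genes (x axis) under the reported scaling, with slide as a block, and under quantile, median and spike-in scaling, with filled symbols where the adjusted p was under 0.05. Hist3h2ba is filled and between -1.06 and -0.78 throughout. Spike-in scaling moves all 11 genes upwards alike, so that only Hist3h2ba is filled there and Hist3h2bb lies at 0.04.

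Of 25 tested factors of histone gene transcription and mRNA processing, 5 rose (20%) and 4 fell (16%), where 9.87% of all tested genes rose and 13.4% fell, with a median log2 change of 0.04. Without any 1 control array, or without BRG1 siRNA replicates 1 or 2, at most 2 rose and at most 1 fell, and with spike-in scaling 6 were called, all of them higher. E2f1, a transcription factor of S phase entry, was at 1.31, 1.43 and 1.25 with BRG1 siRNA, against 0.77, 0.71 and 0.75 with control siRNA, and rose by 0.59 (adjusted p = 0.0030). Slbp, which binds the stem-loop and is needed for processing and translation of these mRNAs, was at 4.11, 4.19 and 4.30 with BRG1 siRNA, against 4.46, 4.39 and 4.45 with control siRNA. It fell by 0.23 (adjusted p = 0.0438), and the groups did not overlap. Lsm1, of the complex that degrades histone mRNA, fell by 0.30 (adjusted p = 0.0474), and Ccne2, a cyclin of S phase entry, fell by 0.26 (adjusted p = 0.0379).

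Among 31 tested histone chaperones and deposition factors, 6 fell (19.4%) and 2 rose (6.45%), where 13.4% of all tested genes fell and 9.87% rose, with a median of -0.06. Without any 1 control array, or without BRG1 siRNA replicates 1 or 2, 1 fell and at most 2 rose. Set, a chaperone of core histones, fell by 0.33 (adjusted p = 0.0047), and Nasp, a chaperone of H3, H4 and linker histones, fell by 0.31 (adjusted p = 0.0406). Vps72, which brings H2A.Z to chromatin, rose by 0.62 (adjusted p = 0.0050), and Supt6h, an elongation factor that binds histones, rose by 0.26 (adjusted p = 0.0417). With spike-in scaling 6 of these genes were called, all of them higher.

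Cell cycle genes were read because clustered histone genes follow S phase. Of 37 tested genes of DNA replication and S phase, 3 rose (8.11%) and 5 fell (13.5%), shares near the 9.87% and 13.4% of all tested genes, with a median of 0.01 (0.21 with spike-in scaling), and the summed linear signal overlapped, at 889 to 946 with BRG1 siRNA and 923 to 941 with control siRNA, in multiples of the 75th percentile. Without any 1 control array, or without BRG1 siRNA replicates 1 or 2, 1 rose and at most 1 fell. Pold1, the catalytic subunit of a replicative polymerase, rose by 0.34 (adjusted p = 0.0043), and Cdc45l, of the replicative helicase, rose by 0.24 (adjusted p = 0.0291). Tyms, which makes thymidylate, fell by 0.29 (adjusted p = 0.0196), and Gmnn, an inhibitor of replication licensing, fell by 0.27 (adjusted p = 0.0424). Of 22 tested mitotic genes, 7 fell (31.8%, against 13.4% of all tested genes) and 0 rose by limma, with 2 higher at an unadjusted p under 0.05, and the median was -0.11. Without control arrays in turn or BRG1 siRNA replicate 1, 1 mitotic gene fell, and without BRG1 siRNA replicate 2, 2 did. Birc5, of the chromosomal passenger complex, fell by 0.49 (adjusted p = 0.0040), and Cenpa, the centromeric H3 variant, was at 1.77, 1.55 and 1.93 with BRG1 siRNA, against 2.19, 2.13 and 2.28 with control siRNA. Cenpa fell by 0.45 (adjusted p = 0.0315), without overlap, Cenpe, a kinetochore motor, fell by 0.36 (adjusted p = 0.0233), and Aurka, a mitotic kinase, by 0.25 (adjusted p = 0.0155). The summed signal of the mitotic genes was 468 to 489 with BRG1 siRNA, against 543 to 549 with control siRNA, and its part in the histone values was not tested. With spike-in scaling 2 of the mitotic genes were higher and 1 lower, and their median was 0.09.

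Markers of other cells that the culture could hold were read in the same way. Of 9 tested fibroblast markers, 5 fell (55.6%) and 1 rose (11.1%), where 13.4% of all tested genes fell and 9.87% rose. Without control replicate 2 or with slide as a block 3 fell. Fn1, a matrix protein, fell by 0.81 (adjusted p = 0.0034), Thy1, a surface protein, by 0.79 (adjusted p = 0.0025) and the collagen gene Col3a1 by 0.73 (adjusted p = 0.0046), whereas Lox, which crosslinks collagen, rose by 0.75 (adjusted p = 0.0028). The summed signal of these 9 genes was 9.08 to 10.2 with BRG1 siRNA, against 12.9 to 14.2 with control siRNA, and its part in the histone values was not tested. Of 8 blood markers, 5 were tested, of which 1 was called higher (20%, against 9.87% of all tested genes) and 0 lower. The called gene was Cd68, a macrophage protein, which rose by 0.47 (adjusted p = 0.0052). Ptprc and Emr1 were among the markers too dim to be tested. In these bulk samples fewer cells of a type and less RNA per cell cannot be told apart.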

How the data were processed

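Total RNA of 6 samples, 3 per group, was profiled on single-colour Agilent arrays, and groups come from the sample labels. The authors deposited spot intensity on a linear scale, extracted from array design 014868 with Feature Extraction 9.5.3.1 per the file headers (9.5 per the submitters' processing notes); the processed signal is background-subtracted within the array, and the deposited value table equals it. Probe coordinates are in mm7 per the file headers. The authors' intensities were turned into log2 minus the 75th percentile of each array, leaving out 1639 control spots and outlier spots; spots of a probe were averaged and the brightest probe stood for its gene. Groups were compared with limma 3.58.1 (lmFit, eBayes) in R 4.3.3, two-sided, over all 17758 tested genes, with no covariate, at an adjusted p of 0.05. The method was tested on simulated data. No 2 arrays were copies: at most 1 value was shared, and the SD of log2 differences within a group ran from 0.232 to 0.320.

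Current symbols and promoter windows are from RefSeq tables of GRCm38.p6, used for names, order of neighbours and windows. Named genes are Smarca4, every member past the threshold, the 5 members with the brightest probes in each class, members whose probes disagree, up to 4 changed genes per list with the largest change, and Pou5f1, Sox2 and Nanog; others are given to complete a histone type or because their probes match. Some neighbouring and marker genes are not reported here. Members, lists, tests and alternatives were chosen with earlier results of these data known. Alternatives covered normexp correction (offset 50), quantile, median and spike-in scaling (8 probes), filters on dim probes, slide and replicate number as blocks, probe summaries, moderation, weights and leaving out each array. The number of arrays limits the precision.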

Additional observations from a re-analysis of the deposited data

How the results depend on the processing

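With each array left out, called genes ran from 1641 to 4413 over all genes (4139 with all arrays), from 2 to 9 among clustered histone genes (7), from 0 to 3 among variant histone genes (4) and from 2 to 15 among histone probes (12). Median scaling gave 1734 over all genes, 3 clustered, 0 variant and 2 probes. Spike-in scaling gave 1 clustered gene, 0 variant genes and 3 probes, medians of 0.0752 (clustered) and 0.114 (variant), and 0.0375 for Hist3h2bb, the only named gene that reversed; it raised the median of all genes to 0.16, against -0.04 as reported, and the split of calls became 3358 higher and 635 lower, against 1752 and 2387. With no filter on dim probes 1740, 2, 1 and 4 were called. Slide as a fixed block gave 1392, 2, 1 and 4, and slide 1 alone 59, 1, 0 and 1, with Smarca4 at -0.54. Both quantile settings called 2 variant genes, array weights 6820 genes and 22 histone probes, and trend with robust 19 histone probes. Where limma called 0 variant genes, the number at an unadjusted p under 0.05 was 1 with median scaling, 5 with spike-in scaling, 4 on slide 1 alone and 4 with the replicate block, and 5 without control replicate 3. No histone gene was called higher under any alternative, with 0 to 7 higher at an unadjusted p under 0.05. The cause of these differences between settings was not tested.

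The fit with the replicate block called 1945 genes, 2 clustered and 0 variant histone genes and 2 histone probes. Same-numbered arrays deviated from their group means with correlations of -0.31, 0.11 and -0.02 for replicates 1, 2 and 3, so the numbers were not taken to pair the samples. Arrays of different number gave correlations from -0.34 (BRG1 siRNA replicate 3 with control replicate 2) to 0.34 (BRG1 siRNA replicate 3 with control replicate 1). Slide and group are partly confounded: no control array is on slide 2. Among the changes of the 11 called genes under 22 alternatives each, the ranges kept below zero except for Hist3h2bb. The 43 tested members were all well above background on all 6 arrays, but that flag on every array of a group was itself required for testing. Some, such as Hist1h1t, were still dim and scattered, and how far low signal limited their tests was not tested.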
